A study of Mus musculus with 18 samples.

Results

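The genes described here make sterols and fatty acids. They are 32 listed genes: 18 enzymes that lead from acetyl-CoA units to cholesterol, 8 enzymes of fatty acid synthesis and desaturation, and 6 regulators or carriers. Members were taken by symbol, and 31 of the 32 were found among 34921 genes (Insig2 was not analysed here). All 31 passed the filter on low values, which kept 14016 genes with at least 1 FPKM (fragments per kilobase of transcript, scaled to the size of the library) in 3 or more libraries.

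Total RNA was sequenced from punches of the cerebrum of 9-week-old male C57BL/6 mice, an inbred strain, with 3 libraries a group. Photothrombosis is a stroke model in which light activates rose bengal, a dye in the blood, so that the vessels under the beam clot. The dye (100 mg/kg) was given 5 min before 15 min of 532 nm light (40 mW) from a 2 mm fiber, centred 2 mm to the right of bregma. Tissue of the stroke groups came from the lesion on the right, taken 4 h, 1 day, 3 days or 10 days after the light, where T2-weighted magnetic resonance images showed the lesion. Both control groups are untimed. Contralateral left is the left side, which the protocol assigns to mice with stroke while titles and disease state call it sham. Sham right is the matching right side of sham mice, and whether these received dye or light is not stated. No genetic change was made in any group, and it is unknown if left and right punches were ever taken from 1 mouse.

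Cholesterol is built from acetyl-CoA through mevalonate, isoprenoid units, squalene and lanosterol. The transcription factors SREBP-1 and SREBP-2 (genes Srebf1 and Srebf2) drive most of these enzymes. Their escort protein Scap carries them out of the endoplasmic reticulum when sterols are low, and the Insig proteins hold them back when sterols are high. The brain makes its own cholesterol, since plasma lipoproteins hardly cross the blood-brain barrier, and myelin is its main store.

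Several members carry the letters of known factor sites next to their starts, so 4 of these stretches are shown before the values. They belong to Hmgcs1, Mvd, Insig1 and Hsd17b7, which were all called lower at 10 days. Each is read from RefSeq on GRCm38.p6, 5′ to 3′ on the gene's own strand, and ends before the gene's first annotated base. The stretches are chr13:119690101-119690350 (plus strand) for Hmgcs1, chr8:122443423-122443672 (minus strand) for Mvd, chr5:28071162-28071362 (plus strand) for Insig1 and chr1:169969242-169969455 (minus strand) for Hsd17b7. Capitals mark CCAAT, the letters read by the factor NF-Y, also as ATTGG on the other strand, and in Hmgcs1 the sterol regulatory letters TCACNCCAC.
Hmgcs1: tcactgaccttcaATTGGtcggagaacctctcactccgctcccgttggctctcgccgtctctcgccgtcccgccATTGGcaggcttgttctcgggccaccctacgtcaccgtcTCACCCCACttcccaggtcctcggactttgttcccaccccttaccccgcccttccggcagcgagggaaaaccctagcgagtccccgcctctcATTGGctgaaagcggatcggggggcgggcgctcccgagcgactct
Mvd: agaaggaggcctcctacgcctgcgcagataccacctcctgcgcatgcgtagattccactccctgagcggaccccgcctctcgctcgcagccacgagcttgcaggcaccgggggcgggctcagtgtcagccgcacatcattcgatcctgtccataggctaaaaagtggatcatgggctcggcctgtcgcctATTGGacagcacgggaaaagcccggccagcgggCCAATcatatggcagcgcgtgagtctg
Insig1: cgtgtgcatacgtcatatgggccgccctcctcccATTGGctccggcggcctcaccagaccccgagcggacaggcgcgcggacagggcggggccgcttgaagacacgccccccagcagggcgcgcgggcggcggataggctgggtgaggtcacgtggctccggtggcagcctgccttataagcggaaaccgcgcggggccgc
Hsd17b7: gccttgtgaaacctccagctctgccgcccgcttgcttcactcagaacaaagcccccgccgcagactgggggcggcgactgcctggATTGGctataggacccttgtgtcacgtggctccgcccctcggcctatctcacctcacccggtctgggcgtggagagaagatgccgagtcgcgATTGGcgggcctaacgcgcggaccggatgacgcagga

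The letters TCACNCCAC lay 137 bases before the RefSeq start of Hmgcs1. Over the 250 bases before the start, searched on both strands, 25 listed members had a promoter in the table. CCAAT was in 19 of these 25 and in 37.5% of all 27025 genes. TCACNCCAC was in 1 of the 25, Hmgcs1, and in 1.22% of all genes. The longer form of the sterol regulatory element had no match in the 25 and was in 0.0814% of all genes. No match says only that these letters are not in this window.

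Levels per length differed widely between members. In sham right, Scd2, the main stearoyl-CoA desaturase of brain, had the highest level (230 ± 19 FPKM, SD, n = 3), and Hmgcs1 averaged 69.0 ± 6.4 FPKM. Lss, which closes squalene epoxide into lanosterol, had the lowest (1.86 ± 0.32 FPKM). Of the 31 members, 25 had their lowest group mean at 10 days and none had it in sham right. Neuron, astrocyte and myelin markers were present in every library of this cerebral tissue, while adipocyte markers, of cells that also make much fatty acid, summed to at most 0.0784 FPKM in any library. The sequencing depth of the libraries is not known. The summed level of all genes ran between 311067 and 470682 FPKM, and mitochondrial RNA took 24.4% to 44.6% of it.

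A pair of libraries stood apart from its own group. Stroke 10 days 5 had a mean correlation of 0.933 with the other 10-day libraries, the highest mitochondrial share (44.6%, against 29.2% to 33.1% in sham right), and 55.2% of all tested genes below the lowest sham right library. It was the lowest of its group for 21 of the 31 members. Contralateral left 5 had a mean correlation of 0.941 with its group and was the highest of its group for 22 of the 31 members. Results that rest on stroke 10 days 5 or contralateral left 5 are given with and without both. In contralateral left 1, 3 and 5, 54.4%, 47.3% and 30.5% of all tested genes lay below the lowest sham right library. Above the highest lay 21.8%, 29.0% and 42.4%, and mitochondrial RNA took 39.0%, 33.5% and 30.2%. Leaving out contralateral left 5 thus keeps the left libraries with more genes below sham right, and is an alternative rather than a correction.

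**Figure D1:**
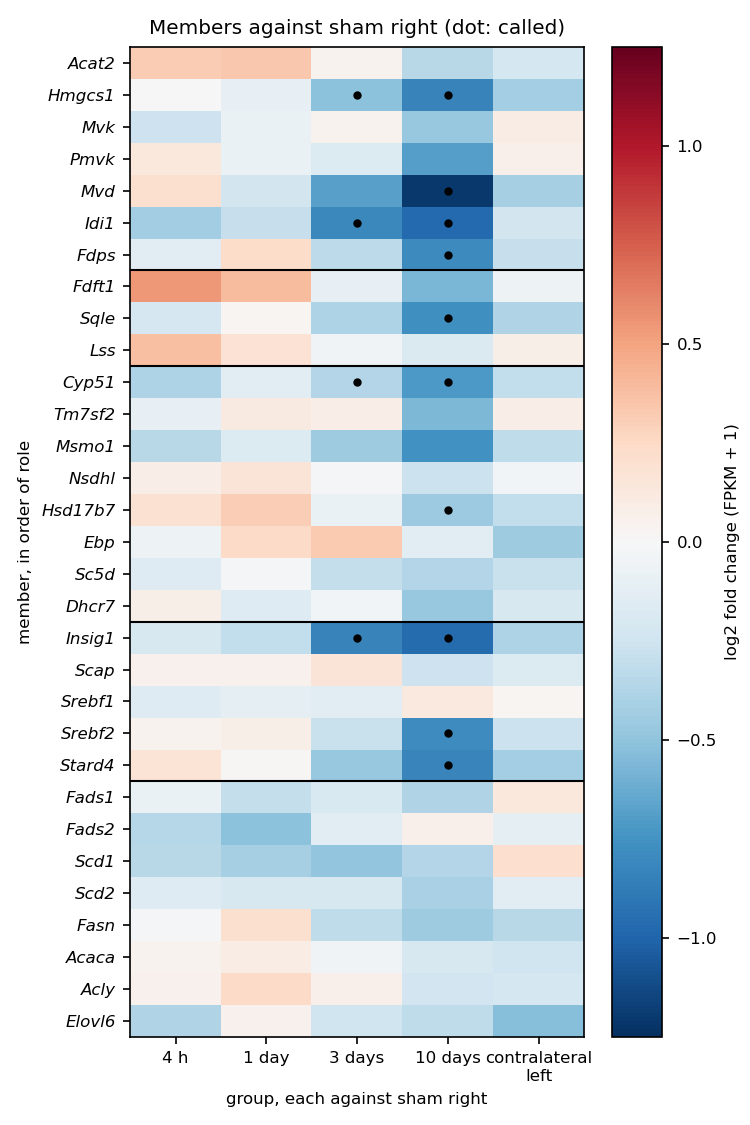
Log2 fold change on the log2(FPKM + 1) scale of each measured member (rows, in the order of the pathway, lines between roles) in each stroke group and in contralateral left, each against sham right (columns). Dots mark members called at an adjusted p under 0.05. No dot stands at 4 h, 1 day or contralateral left, 4 stand at 3 days and 10 at 10 days, all on lower values.

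At 10 days, sterol synthesis genes were lower than in sham right. Of the 31 members, 10 fell and none rose in limma's test (adjusted p under 0.05, Benjamini-Hochberg over all genes), where 0.92% of all tested genes were called lower and 7.13% in either direction. The 10 are the enzymes Hmgcs1, Mvd, Idi1, Fdps, Sqle, Cyp51 and Hsd17b7, the regulators Insig1 and Srebf2, and the sterol carrier Stard4. Every 10-day library lay below every sham right library for 22 of the 31 members (71.0%), against 13.2% of all tested genes. The median log2 fold change was -0.45 over the members and -0.07 over all tested genes. An unadjusted p under 0.05 was reached by 20 of the 31 members and by 2713 of all 14016 tested genes.

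All 7 enzymes of the early mevalonate steps lay below sham right in every 10-day library, and 4 of them fell. Hmgcs1, which makes HMG-CoA (chr13:119690379-119708260, plus strand, GENCODE on GRCm38), had 40.4, 40.9 and 33.6 FPKM at 10 days, against 76.3, 66.3 and 64.5 FPKM in sham right. The groups did not overlap, and the highest 10-day library lay well under the lowest sham library. Its log2 fold change was -0.84 ± 0.14 (SE, n = 3 each) with an adjusted p of 7.35e-04 in limma.

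Idi1, the isopentenyl diphosphate isomerase (chr13:8885501-8892451, plus strand), had 14.2, 14.9 and 14.4 FPKM at 10 days, against 31.8, 27.0 and 29.5 FPKM in sham right. The 10-day libraries were nearly equal to each other and all near the midpoint between 0 and the sham level. The log2 fold change was -0.97 ± 0.17 (adjusted p = 0.00112, limma). Mvd, the mevalonate diphosphate decarboxylase, had 4.93, 4.37 and 1.75 FPKM at 10 days, against 10.0, 8.83 and 8.90 FPKM in sham right. Its low value in stroke 10 days 5 sets part of the size. The Mvd log2 fold change was -1.20 ± 0.22 (adjusted p = 0.00141, limma). Without the pair of libraries that stood apart it was -0.86 ± 0.13 (adjusted p = 6.23e-04, limma). The call was lost in 1 of 15 alternatives, a fit of only the groups compared (adjusted p = 0.0803, limma).

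Fdps, the farnesyl diphosphate synthase, had 7.14, 7.89 and 3.57 FPKM at 10 days, against 12.4, 10.8 and 9.96 FPKM in sham right (log2 fold change -0.80 ± 0.20, adjusted p = 0.0212 in limma). This call was lost without stroke 10 days 5, without sham right 1 and without sham right 2. No filter, a fit of only the groups compared and a replicate block lost it too. Its adjusted p-values ran between 0.00713 and 0.201 over 15 alternatives in limma, 7 of which lost the call. Without both libraries that stood apart its log2 fold change was -0.50 ± 0.15 (adjusted p = 0.0595). The other 3 enzymes of these steps did not pass the test. Their log2 fold changes were -0.34 for Acat2, which condenses acetyl-CoA, -0.48 for mevalonate kinase (Mvk) and -0.69 for phosphomevalonate kinase (Pmvk), and without both libraries they were -0.18 for Acat2, -0.28 for Mvk and -0.29 for Pmvk.

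From squalene to lanosterol, 1 of 3 enzymes fell. Sqle, the squalene epoxidase, had 5.10, 5.59 and 4.29 FPKM at 10 days, against 9.47, 9.30 and 8.79 FPKM in sham right (log2 fold change -0.77 ± 0.17, adjusted p = 0.00645, limma). Every 10-day library was under every sham library by a wide margin. Fdft1, the squalene synthase, had a log2 fold change of -0.57 ± 0.22 (adjusted p = 0.159, limma) without overlap, and Lss one of -0.18 ± 0.18 with overlapping groups.

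From lanosterol to cholesterol, 2 of 8 enzymes fell and 5 of 8 lay below sham right in every 10-day library. Cyp51, the lanosterol demethylase (chr5:4081145-4104746, minus strand), had 11.5, 12.4 and 11.7 FPKM at 10 days, against 20.8, 19.5 and 20.4 FPKM in sham right (log2 fold change -0.72 ± 0.11, adjusted p = 2.20e-04, limma). Both groups were tight and far apart. Hsd17b7, a sterol keto reductase, had 3.19, 3.41 and 3.30 FPKM at 10 days, against 5.16, 4.88 and 4.58 FPKM in sham right (log2 fold change -0.45 ± 0.11, adjusted p = 0.0217, limma). Its groups did not overlap either, but the call was lost without sham right 1, sham right 2 or stroke 10 days 1. Scaling to a common sum without mitochondrial genes, a fit of only the groups compared and both controls together lost it too.

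Msmo1, the sterol methyl oxidase, missed the threshold narrowly (log2 fold change -0.76 ± 0.22, adjusted p = 0.0549, limma), as did the desaturase Sc5d (-0.37 ± 0.11, adjusted p = 0.0636). The reductase Tm7sf2 had 2.26, 2.57 and 0.688 FPKM at 10 days, against 3.23, 2.73 and 3.03 FPKM in sham right, without a call (log2 fold change -0.56, and -0.23 without both libraries that stood apart). Nsdhl, Ebp and Dhcr7 overlapped with sham right. Over the 18 sterol enzymes together, all 18 fold changes at 10 days were negative, 14 had no overlap, and the median was -0.57. Without both libraries that stood apart, Ebp was at 0.05 and the other 17 were negative.

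Among the regulators, Insig1, which holds the SREBP and Scap complex in the endoplasmic reticulum (chr5:28071363-28078662, plus strand), had the smallest p of all members. It had 15.4, 16.8 and 13.8 FPKM at 10 days, against 31.6, 29.0 and 31.4 FPKM in sham right. The mean was 15.3 ± 1.5 FPKM at 10 days and 30.6 ± 1.4 FPKM in sham right (log2 fold change -0.96 ± 0.12, adjusted p = 3.62e-05, limma).

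Stard4, a carrier that moves sterol between membranes (chr18:33199355-33213862, minus strand), had 4.38, 4.01 and 2.72 FPKM at 10 days, against 6.69, 7.77 and 7.30 FPKM in sham right (log2 fold change -0.83 ± 0.14, adjusted p = 9.49e-04, limma). Srebf2, the main driver of sterol genes, had 21.1, 20.9 and 10.4 FPKM at 10 days, against 33.6, 27.9 and 27.6 FPKM in sham right (log2 fold change -0.79 ± 0.20, adjusted p = 0.0214, limma). Neither gene overlapped with sham right. The Srebf2 call was lost without sham right 1 or sham right 2. No filter, a fit of only the groups compared and a replicate block lost it too. Without both libraries that stood apart the Srebf2 log2 fold change was -0.47 ± 0.12 (adjusted p = 0.0232, limma). Srebf1, the main driver of fatty acid genes, went the other way in 2 libraries, with 7.60, 5.89 and 3.15 FPKM at 10 days, against 4.66, 4.301 and 5.29 FPKM in sham right, and its groups overlapped.

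None of the 8 fatty acid enzymes was called at any time against sham right. At 10 days, 7 of 8 fold changes were negative, 5 of 8 enzymes lay below sham right in every library, and the median was -0.34, or -0.21 without both libraries that stood apart. Fasn, the fatty acid synthase, had a log2 fold change of -0.44 ± 0.22 (adjusted p = 0.275, limma), and of -0.21 without both libraries, where Scd1 (-0.42) and Elovl6 (-0.35) had larger ones. Fads2, a desaturase of long-chain fatty acids, had 43.1, 40.3 and 64.3 FPKM at 10 days, against 49.97, 40.7 and 48.5 FPKM in sham right, with its highest value in stroke 10 days 5. The difference between sterol and fatty acid enzymes was not tested. Scd1 and Scd2 are neighbouring near copies on chromosome 19 and may share reads.

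**Figure D2:**
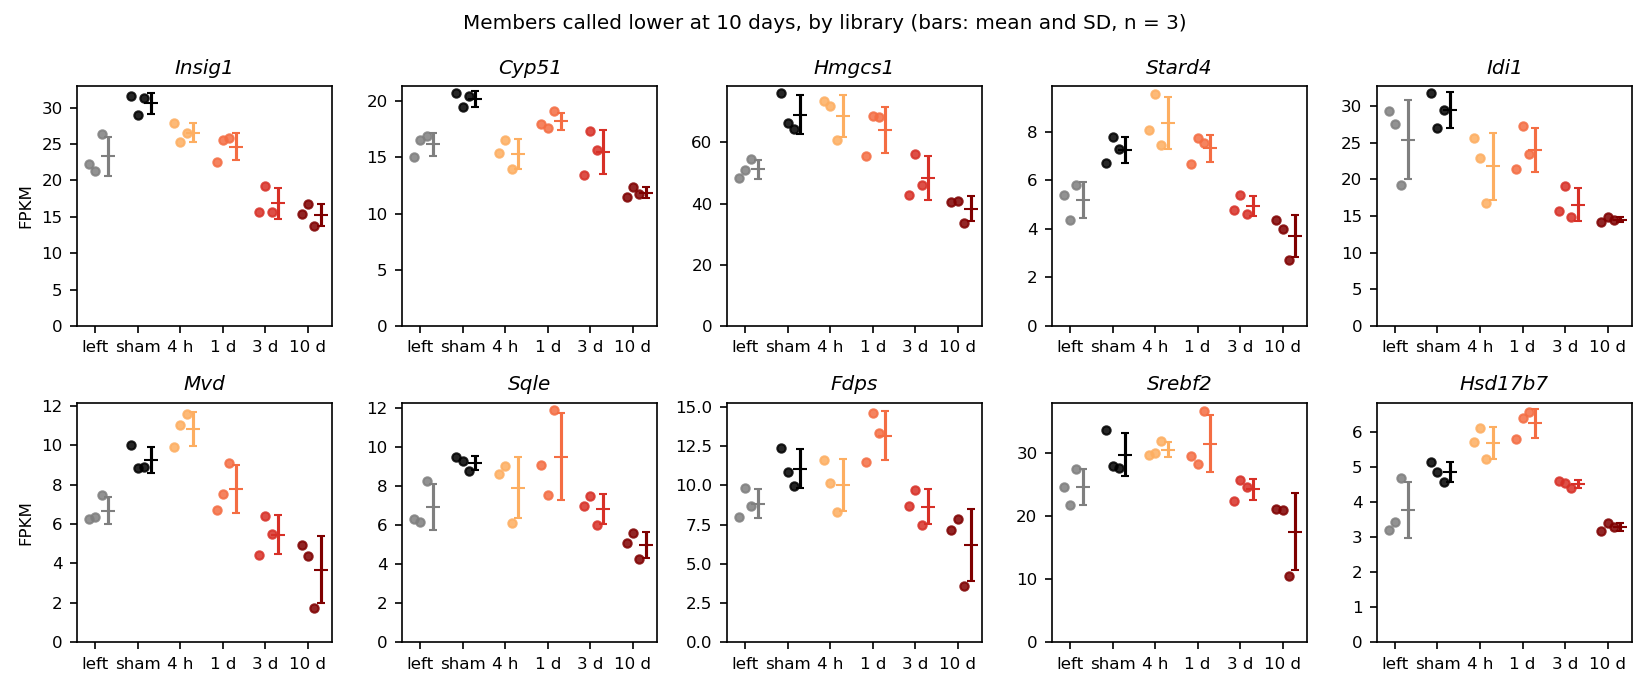
FPKM in every library of the 10 members called lower at 10 days, by group (points, with mean and SD, n = 3 each, y axes from 0). For each of them all 3 libraries at 10 days lie below all 3 of sham right, as for Insig1 with 13.8 to 16.8 FPKM at 10 days and 29.0 to 31.6 FPKM in sham right.

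Without stroke 10 days 5 and contralateral left 5, 11 members were lower and none higher at 10 days (9 shared with the 10 above), where 0.778% of all tested genes were lower. Nsdhl and Sc5d joined and Fdps dropped out. In the other 10-day libraries, 24 members (stroke 10 days 1) and 28 members (stroke 10 days 2) of 31 lay below the lowest sham right library, against 28.7% and 31.1% of all tested genes.

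Cell type markers differed at 10 days as well. The 13 microglia and macrophage markers summed to 907 to 1039 FPKM at 10 days, against 97.9 to 137 FPKM in sham right. Of these markers 9 rose, where 6.21% of all tested genes were higher. None of 14 neuron, 15 myelin, 12 astrocyte or 8 endothelial markers was called. Fold changes were negative for 12 neuron, 12 myelin, 8 astrocyte and 4 endothelial markers. The median log2 fold changes were -0.28, -0.12, -0.30 and 0.005 in that order. Without both libraries that stood apart they were -0.14, 0.07, -0.13 and 7.43e-04. The sums of neuron markers were 1461 to 1601 FPKM at 10 days and 1554 to 1736 FPKM in sham right. For myelin they were 1066 to 1238 FPKM at 10 days and 994 to 1448 FPKM in sham right. For astrocytes they were 499 to 616 FPKM at 10 days and 592 to 659.6 FPKM in sham right. In such bulk tissue, fewer cells of a type and less RNA per cell cannot be told apart, and the part of the macrophage RNA in the lower sterol values was not tested.

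**Figure D3:**
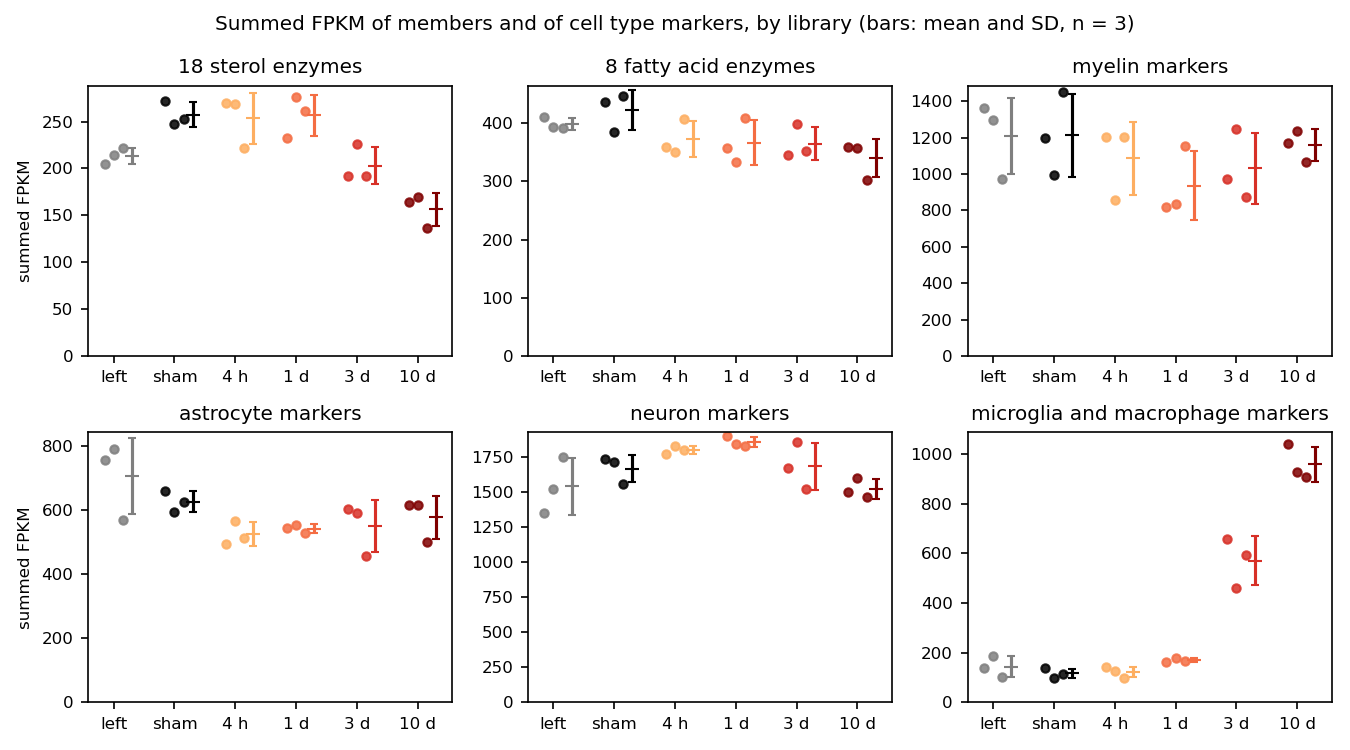
Summed FPKM of the sterol enzymes, the fatty acid enzymes and 4 marker lists in every library, by group (points, with mean and SD, n = 3 each, y axes from 0). The sterol enzymes reach 136 to 169 FPKM at 10 days and 248 to 272 FPKM in sham right, while microglia and macrophage markers run from 907 to 1039 FPKM at 10 days and from 97.9 to 137 FPKM in sham right.

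At 3 days, 4 members fell and none rose against sham right, where 0.457% of all tested genes were lower and 7.36% were called in either direction. Insig1 had 15.7, 19.2 and 15.6 FPKM at 3 days, against 31.6, 29.0 and 31.4 FPKM in sham right (log2 fold change -0.83 ± 0.12, adjusted p = 2.02e-04, limma). Idi1 had 15.7, 19.1 and 14.8 FPKM at 3 days, against 31.8, 27.0 and 29.5 FPKM in sham right (-0.80 ± 0.17, adjusted p = 0.00598). Both lay near their 10-day levels already at 3 days, with no overlap with sham right.

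Hmgcs1 had 42.7, 56.3 and 46.1 FPKM at 3 days, against 76.3, 66.3 and 64.5 FPKM in sham right (log2 fold change -0.51 ± 0.14, adjusted p = 0.0357, limma). Cyp51 had 13.4, 17.3 and 15.6 FPKM at 3 days, against 20.8, 19.5 and 20.4 FPKM in sham right (-0.37 ± 0.11, adjusted p = 0.0464). Neither overlapped with sham right, but leaving out sham right 1, 2 or 3, or stroke 3 days 1 or 8, lost both calls and left 2 members called. The Hmgcs1 and Cyp51 calls at 3 days were each kept in 5 of 15 alternatives. Without contralateral left 5 and stroke 10 days 5, which feed the shared estimate of spread, 8 members were lower and 1, Ebp, higher. Of all tested genes 1.53% were lower and 11.1% higher in that setting. Over the 31 members at 3 days, 25 fold changes were negative and 12 members (38.7%) lay below sham right in every library, against 9.67% of all tested genes. Ebp, the sterol isomerase, had 9.78, 9.77 and 9.10 FPKM at 3 days, against 7.78, 6.98 and 7.51 FPKM in sham right. It lay above sham right in every library without a call (adjusted p = 0.294, limma), where 27.2% of all tested genes lay above. Microglia and macrophage markers summed to 462 to 658 FPKM at 3 days, and 9 of 13 rose, where 6.91% of all tested genes were higher.

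At 4 h and at 1 day no member was called against sham right, where 2.18% and 1.18% of all tested genes were. An unadjusted p under 0.05 was reached by 6 of 31 members at each time. Of all 14016 tested genes, 2306 reached it at 4 h and 1203 at 1 day. The smallest p-values at 4 h belonged to Cyp51 (log2 fold change -0.38 ± 0.11, adjusted p = 0.0788 in limma), Elovl6, a fatty acid elongase (-0.37 ± 0.14, adjusted p = 0.198), and Idi1 (-0.44 ± 0.17, adjusted p = 0.217).

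Cyp51 had 15.4, 16.6 and 14.0 FPKM at 4 h, against 20.8, 19.5 and 20.4 FPKM in sham right. Elovl6 had 8.61, 7.21 and 8.65 FPKM at 4 h, against 9.99, 10.8 and 11.8 FPKM in sham right. Idi1 had 25.6, 23.0 and 16.7 FPKM at 4 h, against 31.8, 27.0 and 29.5 FPKM in sham right. All 3 lay below sham right in every 4 h library, as did 19.4% of members and 17.2% of all tested genes. Without both libraries that stood apart, Cyp51, Elovl6 and Fads2 were called lower at 4 h, where 6.34% of all tested genes were, and Fads2 at 1 day, where 2.98% were called in either direction.

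At 1 day the smallest p-values belonged to Fads2, Hsd17b7 and Insig1. Fads2 had 34.7, 28.5 and 33.5 FPKM at 1 day, against 49.97, 40.7 and 48.5 FPKM in sham right (log2 fold change -0.51 ± 0.16, adjusted p = 0.214, limma). Hsd17b7 had 5.80, 6.41 and 6.58 FPKM at 1 day, against 5.16, 4.88 and 4.58 FPKM in sham right (0.31 ± 0.11, adjusted p = 0.366). Insig1 had 22.5, 25.5 and 25.9 FPKM at 1 day, against 31.6, 29.0 and 31.4 FPKM in sham right (-0.31 ± 0.12, adjusted p = 0.412). None of the 3 overlapped with sham right, and the sterol enzyme Hsd17b7 was the one on the high side. Of all members 12.9% lay below sham right in every 1-day library and 12.9% above it. Of all tested genes 8.5% lay below and 14.3% above. Other cells' markers differed at these times. The 8 endothelial markers summed to 43.8 to 53.3 FPKM at 4 h and 54.4 to 76.5 FPKM at 1 day, against 99.6 to 107 FPKM in sham right, and 4 of them fell at 4 h and 1 at 1 day. Astrocyte markers, of cells that make much of the brain's sterol, summed to 494 to 566 FPKM at 4 h and 527 to 554 FPKM at 1 day, against 592 to 659.6 FPKM in sham right, with 1 of 12 called lower at each time. The 15 myelin markers summed to 856 to 1205 FPKM at 4 h and 819 to 1156 FPKM at 1 day, against 994 to 1448 FPKM in sham right, with 2 called lower at 4 h and 1 at 1 day, and a median log2 fold change of -0.50 at 1 day. Of the 13 microglia and macrophage markers none was called at 4 h and 2 rose at 1 day. Of all tested genes, 0.863% were lower at 4 h, and 0.278% were lower and 0.899% higher at 1 day. The part of all these cells in the members' values was not tested.

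Between successive times, Insig1, which lay below every sham right library from 4 h on (25.3 to 27.9 FPKM at 4 h), was lower again at 3 days. It fell at 3 days against 1 day (log2 fold change -0.53 ± 0.12, adjusted p = 0.0138, limma). Insig1 was the one member called there, where 0.15% of all tested genes were lower and 5.22% were called. An unadjusted p under 0.05 was reached by 13 members and by 1782 of all 14016 tested genes. The Insig1 call was lost without stroke 1 day 3 or 4, or stroke 3 days 1 or 8. Without the pair of libraries that stood apart, 9 members were called (8 lower, 1 higher), where 0.442% of all tested genes were lower and 8.76% higher. No member was called at 1 day against 4 h or at 10 days against 3 days, where 1.23% and 2.02% of all tested genes were. In that order, 2 and 14 members had an unadjusted p under 0.05, as had 1416 and 2408 of all 14016 tested genes. At 10 days against 3 days, 28 of 31 fold changes were negative, with a median of -0.33 over members and -0.15 over all tested genes. Without the pair of libraries that stood apart the medians were -0.18 over members and -0.07 over all tested genes. Leaving out stroke 10 days 2 gave 1 call there. The summed level of the 18 sterol enzymes was 253 ± 27 FPKM at 4 h, 257 ± 22 FPKM at 1 day, 203 ± 20 FPKM at 3 days and 156 ± 18 FPKM at 10 days, against 257 ± 13 FPKM in sham right and 214 ± 8.5 FPKM in contralateral left (SD, n = 3 each).

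The control groups were compared with each other as well. In contralateral left against sham right no member was called, where 0.0285% of all tested genes were. The fold changes of 24 of 31 members were nevertheless negative, with a median of -0.22 over members and -0.05 over all tested genes. Of the 31 members 9 had an unadjusted p under 0.05, as had 1077 of all 14016 tested genes. In 11 members (35.5%) every left library lay below every sham right library, against 8.29% of all tested genes. The smallest p-values belonged to Elovl6, Insig1 and Hmgcs1.

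Elovl6 had 6.61, 5.77 and 9.64 FPKM in contralateral left, against 9.99, 10.8 and 11.8 FPKM in sham right (log2 fold change -0.53 ± 0.14, adjusted p = 0.410, limma). Insig1 had 22.2, 21.3 and 26.4 FPKM in contralateral left, against 31.6, 29.0 and 31.4 FPKM in sham right (-0.39 ± 0.12, adjusted p = 0.487). Hmgcs1 had 48.3, 50.9 and 54.4 FPKM in contralateral left, against 76.3, 66.3 and 64.5 FPKM in sham right (-0.42 ± 0.14, adjusted p = 0.525). In each case contralateral left 5 was the left library nearest to sham right. Without it and stroke 10 days 5, 13 members were called lower, where 14.8% of all tested genes were lower and 19.7% were called. Without it alone 4 were, where 8.65% of all tested genes were called. In contralateral left 1 and 3, 54.4% and 47.3% of all tested genes lay below the lowest sham right library, as did 20 and 22 of the 31 members.

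Against contralateral left, 5 members fell and none rose at 10 days, where 1.42% of all tested genes were lower and 8.62% were called. They are Insig1 (log2 fold change -0.57 ± 0.12, adjusted p = 0.00464, limma), Idi1 (-0.75 ± 0.17, adjusted p = 0.00961), Cyp51 (-0.42 ± 0.11, adjusted p = 0.0216), the desaturase Fads1 (-0.50 ± 0.13, adjusted p = 0.0220) and Mvd (-0.79 ± 0.22, adjusted p = 0.0320). For all 5, every 10-day library lay below every left library. Without both libraries that stood apart Mvd was not called (-0.37 ± 0.15, adjusted p = 0.0888, limma). Nor was it without stroke 10 days 5, contralateral left 1 or contralateral left 3 alone. Over 14 alternatives the call was lost in 9 for Mvd, 4 for Cyp51, 4 for Fads1, 3 for Idi1 and 1 for Insig1. Fads1 had 38.0, 36.0 and 30.1 FPKM at 10 days, against 50.6, 53.2 and 44.7 FPKM in contralateral left. Of all members 16 (51.6%) had no overlap on the low side, against 5.69% of all tested genes.

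The count at 10 days against contralateral left moved with single libraries. It was 2 without contralateral left 1, 1 without contralateral left 3, 10 without contralateral left 5, 8 without stroke 10 days 1 and 9 without stroke 10 days 2. Of all tested genes 5.98%, 6.19%, 22.3%, 10.3% and 10.4% were called in these settings, in the same order. Without the pair that stood apart, 6 members were lower and 3 higher, where 3.87% and 16.7% of all tested genes were.

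**Figure D4:**
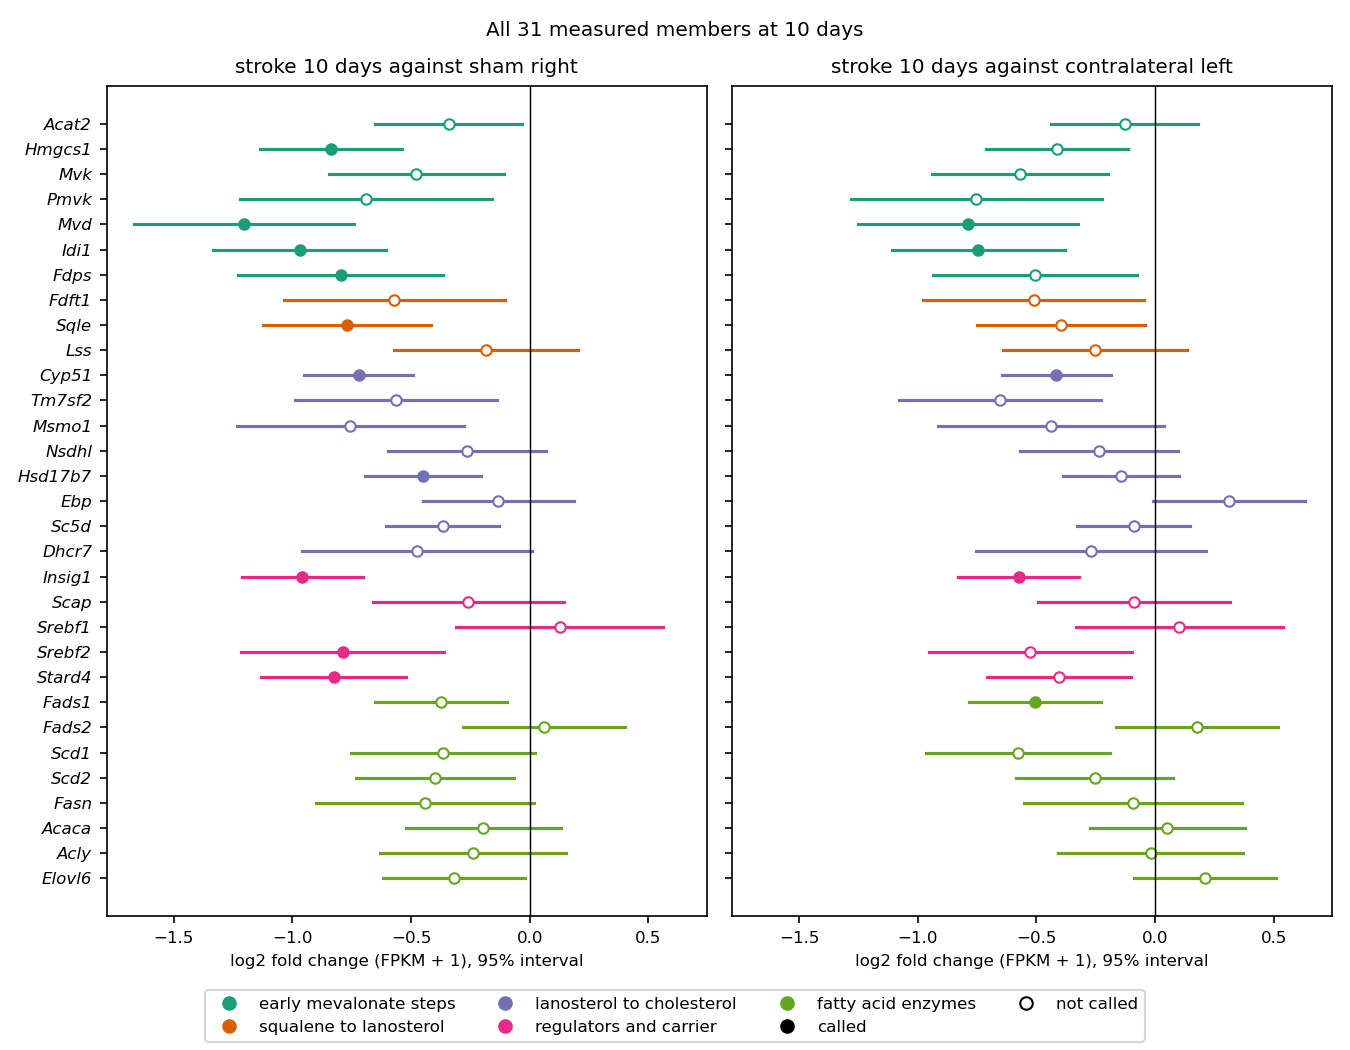
Log2 fold change on the log2(FPKM + 1) scale with its 95% interval for each of the 31 measured members (rows, coloured by role) at 10 days against sham right (left panel) and against contralateral left (right panel). Filled points are called. Against sham right 29 of 31 points lie below 0, and against contralateral left 26 of 31 do.

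At the earlier times the members called against contralateral left were few. At 4 h, Hsd17b7 rose (log2 fold change 0.49 ± 0.11, adjusted p = 0.0491, limma), where 1.06% of all tested genes were higher and 1.26% were called. At 1 day, Hsd17b7 (0.61 ± 0.11, adjusted p = 0.0112), Ebp (0.69 ± 0.15, adjusted p = 0.0280) and Elovl6 (0.59 ± 0.14, adjusted p = 0.0447) rose, where 1.28% were higher and 1.74% were called. At 3 days Ebp rose (0.77 ± 0.15, adjusted p = 0.00272), where 9.34% were higher. Scd1 (-0.70 ± 0.18, adjusted p = 0.0209), Insig1 (-0.45 ± 0.12, adjusted p = 0.0255) and Idi1 (-0.58 ± 0.17, adjusted p = 0.0427) fell at 3 days, where 0.649% were lower and 9.99% were called. The Hsd17b7 call was lost in 9 of 13 alternatives at 4 h and in 5 of 13 at 1 day. Over 14 alternatives the call was lost in 9 for Elovl6, 7 for Scd1, 6 for Insig1 and 8 for Idi1. Elovl6 had 10.6, 10.9 and 12.5 FPKM at 1 day and overlapped with sham right (9.99, 10.8 and 11.8 FPKM). Contralateral left was lower, with 6.61, 5.77 and 9.64 FPKM.

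Ebp was called against contralateral left at 1 day and 3 days, but at no time against sham right with all 18 libraries. It had 8.36, 8.98 and 9.55 FPKM at 1 day and 9.78, 9.77 and 9.10 FPKM at 3 days. Contralateral left had 4.50, 5.04 and 6.11 FPKM, itself below the 6.98 to 7.78 FPKM of sham right. The 3-day call was kept in 13 of 14 alternatives and lost with the replicate block. The 1-day call was kept in 6 of 14, and lost among others without contralateral left 1 or 3. Without contralateral left 5, 12 members were called against the left group at 4 h, 11 at 1 day and 10 at 3 days. Of all tested genes 34.2%, 26.2% and 35.6% were called there. The members' own shares were 38.7%, 35.5% and 32.3%. With stroke 10 days 5 left out as well, 18, 18 and 11 were called, where 46.5%, 40.1% and 48.3% of all tested genes were. Without contralateral left 1 the counts were 0, 0 and 1, where 0.228%, 0.571% and 6.29% of all tested genes were called. Without contralateral left 3 they were 0, 0 and 2, where 0.264%, 0.763% and 6.44% were called. Leaving out any library of the stroke group gave 0 at 4 h. At 1 day it gave 1 without stroke 1 day 1 and 0 without stroke 1 day 3 or 4, and at 3 days it gave 1 without stroke 3 days 1 or 8. Of all tested genes 0.228% to 0.606% were called in these settings at 4 h. The shares were 1.14%, 0.721% and 0.664% at 1 day, and 6.56% and 5.69% at 3 days.

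Genes next to these in the pathway were read from a pair of lists. Of 20 further synthesis and uptake genes 18 passed the filter. At 10 days 5 fell and 1 rose against sham right, where 0.92% of all tested genes were lower and 6.21% higher. Acsl3, which activates long-chain fatty acids, had 41.2, 44.7 and 40.8 FPKM at 10 days, against 59.4, 51.1 and 59.9 FPKM in sham right (log2 fold change -0.41 ± 0.11, adjusted p = 0.0285, limma). Acss2, which activates acetate, had 3.67, 3.27 and 2.07 FPKM at 10 days, against 4.71, 4.55 and 5.05 FPKM in sham right (-0.55 ± 0.15, adjusted p = 0.0359). Both were among those that fell and lay below sham right in every library. The list's median was -0.15.

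Elovl1, which elongates very long saturated fatty acids, rose against sham right in 3 of the 4 stroke groups. It had 4.27, 5.16 and 4.43 FPKM at 1 day, 3.85, 4.10 and 4.24 FPKM at 3 days and 4.68, 6.45 and 7.39 FPKM at 10 days, against 2.82, 2.57 and 2.72 FPKM in sham right. The log2 fold changes were 0.60, 0.45 and 0.94 in that order of time. All these libraries lay above sham right. At 3 days Acsl3 fell in the same list (-0.40 ± 0.11, adjusted p = 0.0340, limma), and no gene of it was called at 4 h. Without both libraries that stood apart, 4 genes of the list fell and 1 rose at 10 days. Of all tested genes 0.778% were lower and 6.56% higher there.

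Most genes of sterol efflux, storage and turnover went the other way. Of 15 tested, 8 rose and none fell at 10 days against sham right, where 6.21% of all tested genes were higher. Fold changes were positive for 11 and negative for 4 of the 15, and 1 gene lay below sham right in every library. The list's median log2 fold change was 0.66. Apoe, the main apolipoprotein of brain, had 1417, 1106 and 1199 FPKM at 10 days, against 354, 245 and 320.0 FPKM in sham right (log2 fold change 2.02 ± 0.20, adjusted p = 2.82e-06, limma). Ch25h, which makes 25-hydroxycholesterol, had 5.23, 4.53 and 6.69 FPKM at 10 days, against 0.508, 0.348 and 0.301 FPKM in sham right (2.22 ± 0.20, adjusted p = 1.16e-06). Both were far above sham right in every library. The count was 8 as well without the pair that stood apart, where 6.56% of all tested genes were higher. The others that rose were the efflux pumps Abca1 (2.66 ± 0.30) and Abcg1, the lysosomal sterol carrier Npc2, the ubiquitin ligase Mylip, the esterifying enzyme Soat1 and Cyp27a1. Macrophage markers rose in the same libraries, as given above, and their part in these values was not tested.

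These genes differed in time. Ch25h was called higher at all 4 times, with log2 fold changes of 1.24 at 4 h, 1.98 at 1 day, 2.43 at 3 days and 2.22 at 10 days. Apoe was called lower at 1 day, with 183, 169 and 141 FPKM, against 354, 245 and 320.0 FPKM in sham right (-0.89 ± 0.20, adjusted p = 0.0380, limma), before its high 10-day level. At 3 days 4 of 15 rose, where 6.91% of all tested genes were higher. Ch25h and Npc2 (0.73 ± 0.15, adjusted p = 0.00429, limma) had the smallest p-values, followed by Abca1 and Soat1. At 4 h Cyp7b1, an oxysterol hydroxylase, fell (-0.51 ± 0.13, adjusted p = 0.0474). Against contralateral left none of the 15 genes was called at 4 h, where 1.26% of all tested genes were. At 1 day 1 rose and 1 fell against contralateral left, where 1.74% of all tested genes were called. There 6 rose at 3 days and 10 at 10 days and none fell, where 9.34% and 7.2% of all tested genes were higher.

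**Figure D5:**
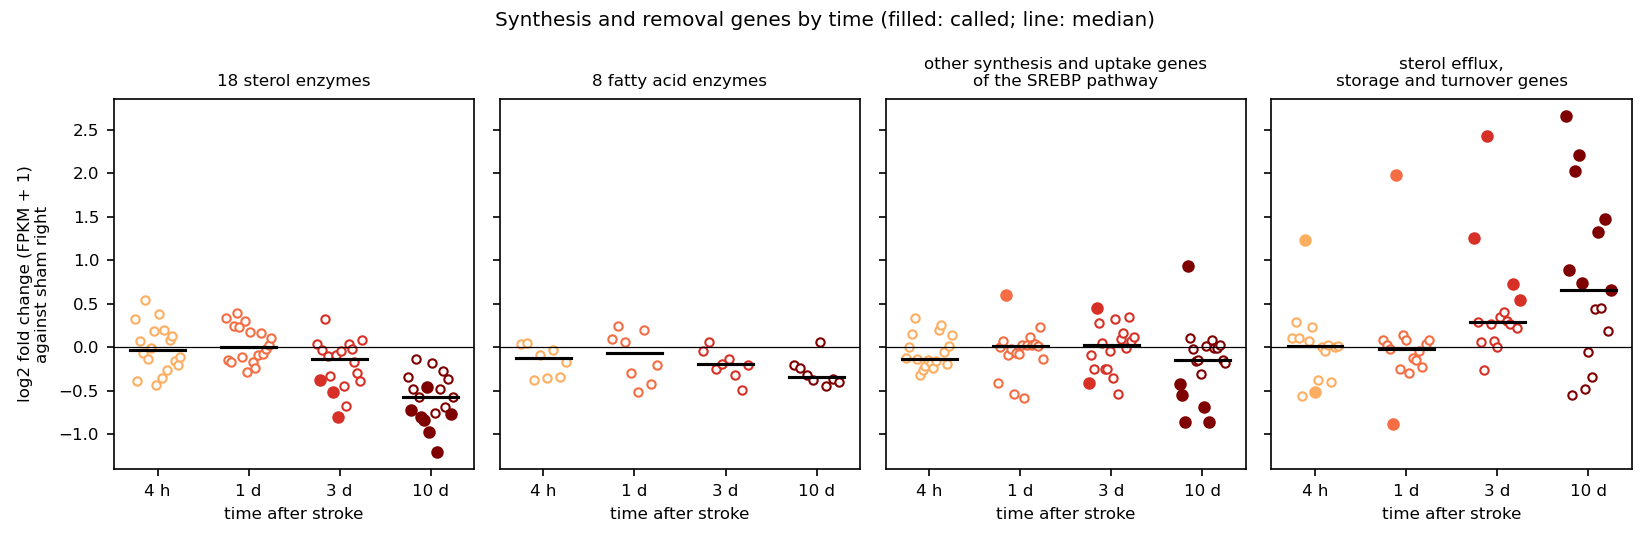
Log2 fold change on the log2(FPKM + 1) scale against sham right at each time after stroke for the 18 sterol enzymes, the 8 fatty acid enzymes, the further synthesis and uptake genes and the efflux, storage and turnover genes (points are genes, filled where called, lines are medians). At 10 days the median of the sterol enzymes is -0.57 and that of the efflux, storage and turnover genes 0.66.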

How the data were processed

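RNA levels of 18 libraries (6 groups of 3) were analysed as FPKM, as the authors deposited them. The submitters' processing notes name StringTie 1.3.4d, HISAT2 2.1.0, Trimmomatic 0.36 and the mouse build GRCm38, while settings, annotation and strand handling are not given in the sources used here. Sums of FPKM differed between libraries, and other scalings were tried as alternatives. The deposited p-value and q-value columns, whose comparison is not stated, entered no test. The copy used ends inside a line and holds 34921 complete gene entries; 3101 more are implied and were not analysed here. Genes were named by the symbols in the file and located with GENCODE on GRCm38. Low values gave no clear step in whole reads, so counts were not recovered and depth is unknown. Of these values 33.2% to 41.6% lay within 0.1 of a whole multiple of the step, against 20% for evenly spread values. The step was itself set to the most common low value, so the check cannot decide whether weak steps were present.

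Log2(FPKM + 1) of 14016 genes (FPKM of at least 1 in 3 libraries) entered linear models (R 4.3.3, package limma 3.58.1 with statmod 1.5.0), with a mean for each group over all 18 libraries and empirical Bayes moderation with trend and robust settings. Fold changes on this scale understate changes of low genes. Genes were called at an adjusted p under 0.05, Benjamini-Hochberg over all genes tested, in 12 comparisons that share groups. The code was tested on simulated data. The labels' protocols give 3 animals for sham and for each time and 3 left sides, so replicates are punches of mice.

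The members, lists and markers were chosen with earlier results of these data known. All members could be named; values in every library went to up to 5 called members per direction with the smallest adjusted p at each time against sham right (the 3 with the smallest p where fewer than 3 were called), and to up to 2 called genes per direction of each further list. Values of other members were added after they were seen. Alternatives were another pseudocount (0.1), no filter, a mean FPKM of at least 5, other scalings, a fit of the groups compared alone, leaving out libraries, a replicate block and both controls together.

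Counts over the further lists without contralateral left 5 and stroke 10 days 5 were chosen after seeing the data. All comparisons with sham right share its 3 libraries, as those with contralateral left share theirs. Some genes of the further lists count in the totals but their own values are not reported here, and Acsl3 and Acss2 are given in their place at 10 days.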

Additional observations from a re-analysis of the deposited data

Results flagged for a closer look

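Insig1 differed between successive times after stroke: its log2 fold change at 3 days against 1 day was -0.53 ± 0.12 (SE, n = 3 each, adjusted p = 0.0138, limma), so that its difference from sham right was larger at 3 days (-0.83) than at 1 day (-0.31). This is a direct test between both stroke groups. All 3 libraries at 3 days (15.6 to 19.2 FPKM) lay below all 3 at 1 day (22.5 to 25.9 FPKM). Its adjusted p over 14 alternatives ran between 0.00182 and 0.228. It was the one member of 31 called between successive times.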

How the results depend on the processing

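At 10 days against sham right the count of lower members (10) was 6 with only the groups compared and 8 to 13 under the other settings apart from single libraries. Of all tested genes 4.96% were called with only the groups compared and 3.2% to 9.36% under those other settings. At 3 days against sham right (4) the count was 2 with no filter and with a mean FPKM of at least 5. It was 2 as well with a common sum without mitochondrial genes and with the replicate block, and 9 with only the groups compared. In the same order 3.22%, 3.42%, 6.82%, 5.06% and 13.1% of all tested genes were called. At 1 day against sham right (0) the count was 1 with both controls together, where 1.89% of all tested genes were called. Without contralateral left 5 and stroke 10 days 5 the counts against sham right were 3 at 4 h, 1 at 1 day, 9 at 3 days and 13 in contralateral left. Of all tested genes 12.9%, 2.98%, 12.6% and 19.7% were called there. Counts against contralateral left were then 18 at 4 h, 18 at 1 day, 11 at 3 days and 9 at 10 days. The shares of all tested genes were 46.5%, 40.1%, 48.3% and 20.6%. Between times the counts were 1 at 1 day against 4 h and 9 at 3 days against 1 day, where 5.04% and 9.2% were called. Against contralateral left, using only the groups compared gave 0 at 4 h, 0 at 1 day, 1 at 3 days and 0 at 10 days. No filter gave 0 at 4 h, 1 at 1 day and 2 at 3 days, median-of-ratios scaling 0 at 4 h and 11 at 10 days, the common sum 2 at 4 h, the stricter mean 0 at 4 h and the replicate block 0 at 3 days. At 3 days against 1 day (1) the count was 2 with the common sum, 3 with median-of-ratios scaling, 2 with only the groups compared and 0 with the replicate block. In the same order 4.53%, 4.27%, 4.6% and 2.69% of all tested genes were called. Leaving out single libraries gave 0 to 0 members at 4 h, 0 to 0 at 1 day, 2 to 5 at 3 days, 7 to 12 at 10 days and 0 to 4 in contralateral left against sham right, 0 to 12, 0 to 11, 1 to 10 and 1 to 10 at these times against contralateral left, and 0 to 0, 0 to 1 and 0 to 1 between successive times. The shares of all tested genes called against sham right were then 0.642% to 1.38% at 4 h and 0.606% to 1.11% at 1 day. They were 4.85% to 7.49% at 3 days, 5.26% to 8.28% at 10 days and 0% to 8.65% in contralateral left. Against contralateral left they were 0.228% to 34.2%, 0.571% to 26.2%, 5.69% to 35.6% and 5.98% to 22.3%. Between successive times they were 0.499% to 0.885%, 2.85% to 5.67% and 1.14% to 2.4%. The cause of these moves was not tested.

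Whether equal replicate numbers mark 1 mouse is unknown: 20 pairs of equal number had correlations of deviations between -0.23 and 0.41, 7 of them over 0.1, among these both pairs of contralateral left and sham right (0.22 and 0.10). At most 2 pairs a comparison are too few to decide, so the replicate block was an alternative. Over single members and alternatives, 370 results kept their side of the threshold, 118 lost the call, 4 gained it and none reversed. Insig1, Cyp51, Hmgcs1, Stard4, Idi1 and Sqle at 10 days, and Insig1 and Idi1 at 3 days, kept the call against sham right in all 15 alternatives. Groups of 3 limit what small differences can be called, and depth is unknown.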
